A study of Mus musculus with 9 samples.

Results

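The genes described here are the mouse zinc finger genes whose symbol is Zfp followed by a number, as measured in cumulus cells of wildtype, Bmp15-/- and DM mice. The array carried 335 genes with such a symbol, with the probe set of highest mean signal standing for a gene, and 282 of them were tested because at least 3 of 9 arrays lay above the 40th percentile of their own array. They made up 282 of the 13447 genes tested. The symbol is a name and not a structural class: 1 tested member is an opposite-strand transcript, 2 are pseudogenes by their symbol, and 25 have a letter or other suffix after the number.

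Most proteins with a Zfp name carry tandem C2H2 zinc fingers, short loops held by a zinc ion that read DNA base by base. Many also carry a KRAB domain, which recruits the corepressor TRIM28 and the histone methyltransferase SETDB1 to silence retroelements and other targets, and such genes often lie side by side on a chromosome as products of gene duplication. A few members are unrelated in function, among them Zfp36, Zfp36l1 and Zfp36l2, whose CCCH fingers bind AU-rich elements in mRNA and lead it to decay.

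Cumulus cells are the granulosa cells that surround the oocyte, and the oocyte signals to them through the TGF-beta family ligands BMP15 and GDF9. The study compared cumulus cells of 3 genotypes, wildtype, Bmp15-/- and the double mutant DM (Bmp15-/-Gdf9+/-, which lacks BMP15 and has lost 1 Gdf9 allele), with 3 arrays each. All were females of a B6/129 background aged 4 to 5 months and primed with 5 IU of eCG for 48 hours. Each sample pooled cumulus cells stripped from 75 to 100 complexes of 3 to 4 mice in medium with 5 µM milrinone, and 10 ng of its RNA went through 2 rounds of amplification before hybridisation. Both alleles are germline changes of genes expressed in the oocyte, so cells other than cumulus cells, and the oocyte itself, carried them too.

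All 10 tested markers of cumulus and granulosa cells, such as Foxl2, Fshr and Inha, were present in wildtype, at log2 values of 6.31 to 13.66. Kitl fell by 1.54 in Bmp15-/- and the other 9 were not called, and in DM 5 of the 10 fell and 1 rose, with a median change of -0.53; Foxl2 fell there by 0.78. The median of 13 oocyte markers was 5.36, 7.61 and 6.34 for wildtype, 5.70, 6.15 and 5.21 for Bmp15-/- and 5.05, 5.5 and 5.63 for DM, so wildtype array 2 stood highest. The median of 4 theca and stroma markers was 6.40 to 6.77 for wildtype, 6.48 to 6.80 for Bmp15-/- and 7.37 to 7.51 for DM. The Gapdh control probe sets were brighter at the 3′ than at the 5′ end by 0.52 to 0.59 log2 units in wildtype, 0.66 to 0.73 in Bmp15-/- and 0.79 to 0.95 in DM. The part of these differences in the results on Zfp genes was not tested, other than by the fit with the oocyte marker median as a covariate given with the counts. In bulk RNA of this kind, fewer cells that express a gene and less RNA per cell cannot be told apart.

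Promoter sequences of RefSeq were found for 230 of the 282 tested members. Shown here are the 250 bases before the annotated start of 7 members on which the results turn, on assembly GRCm38.p6 and 5′ to 3′ on the gene's own strand. Zfp53 (chr17:21488738-21488987, plus strand) and Zfp52 (chr17:21535289-21535538, plus strand) belong to a run of Zfp genes in which several fell, as do Zfp563 (chr17:33089117-33089366, plus strand) and Zfp472 (chr17:32965581-32965830, plus strand) in another. Zfp36 (chr7:28379229-28379478, minus strand) had a large rise in DM, and Zfp950 (chr19:61140841-61141090, minus strand) and Zfp955a (chr17:33255146-33255395, minus strand) were higher in DM than in Bmp15-/-. Capitals mark GGGCGG (the GC box), CCAAT (the CCAAT box) and CCGGAAG (an ETS family core) on either strand.
Zfp53: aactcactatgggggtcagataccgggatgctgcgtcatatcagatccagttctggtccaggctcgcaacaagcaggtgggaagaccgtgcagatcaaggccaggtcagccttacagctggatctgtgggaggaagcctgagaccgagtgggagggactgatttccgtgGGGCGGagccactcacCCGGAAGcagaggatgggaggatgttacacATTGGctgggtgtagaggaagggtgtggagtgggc
Zfp52: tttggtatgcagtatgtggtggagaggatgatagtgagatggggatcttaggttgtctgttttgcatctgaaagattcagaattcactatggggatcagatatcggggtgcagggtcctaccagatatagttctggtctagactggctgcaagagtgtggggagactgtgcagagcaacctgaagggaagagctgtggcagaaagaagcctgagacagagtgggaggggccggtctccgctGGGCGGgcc
Zfp563: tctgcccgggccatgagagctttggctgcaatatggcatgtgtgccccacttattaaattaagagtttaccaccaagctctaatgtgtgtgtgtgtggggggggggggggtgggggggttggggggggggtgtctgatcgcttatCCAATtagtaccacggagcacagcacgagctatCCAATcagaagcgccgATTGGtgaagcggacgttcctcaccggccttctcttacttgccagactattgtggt
Zfp472: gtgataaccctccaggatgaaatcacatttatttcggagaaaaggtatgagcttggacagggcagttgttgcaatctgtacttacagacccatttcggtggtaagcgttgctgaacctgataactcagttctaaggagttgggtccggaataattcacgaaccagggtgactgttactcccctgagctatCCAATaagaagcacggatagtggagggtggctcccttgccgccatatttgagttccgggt
Zfp36: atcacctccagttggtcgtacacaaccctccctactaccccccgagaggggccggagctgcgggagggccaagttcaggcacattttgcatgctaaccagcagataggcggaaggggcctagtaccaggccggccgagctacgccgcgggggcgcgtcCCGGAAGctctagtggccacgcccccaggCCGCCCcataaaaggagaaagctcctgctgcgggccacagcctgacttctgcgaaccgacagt
Zfp950: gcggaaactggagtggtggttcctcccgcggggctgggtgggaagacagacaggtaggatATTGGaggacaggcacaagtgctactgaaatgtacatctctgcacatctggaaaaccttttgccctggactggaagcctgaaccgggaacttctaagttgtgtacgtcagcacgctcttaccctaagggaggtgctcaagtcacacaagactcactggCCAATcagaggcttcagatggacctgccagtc
Zfp955a: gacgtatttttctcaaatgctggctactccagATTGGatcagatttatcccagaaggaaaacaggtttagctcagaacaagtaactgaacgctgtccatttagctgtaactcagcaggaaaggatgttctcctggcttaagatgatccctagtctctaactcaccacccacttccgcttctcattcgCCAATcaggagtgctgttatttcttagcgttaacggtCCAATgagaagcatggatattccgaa

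In such windows, CCGGAAG was found in 18.7% of the 230 members and in 7.83% of all 27025 genes with a promoter entry, GGGCGG in 47% and 35.4%, and CCAAT in 47.4% and 37.5%. A gene counted when any of its entries matched. The 27025 include genes not tested here, whereas the 230 members all passed the filter on signal. The TATA box letters TATAAA stood in 7.83% of members and 14.3% of all genes with a promoter entry. GGCGCC was found in 15.7% and 10.8%, TGACGTCA in 3.04% and 1.77%, and GTCTAGAC in 0.435% and 0.2%. Among members the first 3 motifs were about as common in the 35 that fell in Bmp15-/- and had a promoter (CCGGAAG 17.1%, GGGCGG 45.7%, CCAAT 45.7%) as in the 190 that were not called (18.9%, 46.8% and 46.8%). These 7 motifs were searched on both strands, and the choice was made after counts of some other motifs had been seen. A match is a match of letters only, and neighbouring duplicated genes share promoter sequence by descent.

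In Bmp15-/- cumulus cells, a larger share of Zfp genes than of all genes was called lower. Of the 282 members, 43 fell, 6 rose and 233 were not called at an adjusted p of 0.05 (limma, Benjamini-Hochberg over all genes tested), so 15.2% fell and 2.13% rose. Over all 13447 genes 9.07% were called, 5.78% lower and 3.29% higher. The median change of the members was -0.15 log2 units against -0.04 for all genes tested, and 206 of the 282 changes were negative (73%, against 56.4% of all genes). All 3 Bmp15-/- arrays lay below all 3 wildtype arrays for 34% of members and 23.4% of all genes, and above them for 8.51% and 13.4%.

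The number of members called lower depended on single arrays. It was 21, 12 and 19 without wildtype array 1, 2 or 3 and 30, 17 and 14 without Bmp15-/- array 1, 2 or 3. The background moved with it: without wildtype array 2, 4.27% of members and 2.17% of all genes were called lower, and without Bmp15-/- array 3, 4.96% and 2.19%. The 6 rises became 3 without Bmp15-/- array 1 or 2 and 1 without wildtype array 2 or 3 or Bmp15-/- array 3. With the oocyte marker median as a covariate 14 members were lower and 1 higher, or 4.96% called lower against 2.4% of all genes. Of the member calls 87.8% were lower in the values as deposited, 76.9% after quantile normalization (30 lower, 9 higher) and 72.1% after centring each array on its median (31 lower, 12 higher). Over all genes the share of calls that were lower was 63.7%, 46.8% and 36.3% in the same order. Centring moved the median of all genes from -0.04 to 0.08, and the members' median lay 0.11 below that of all genes both before and after (-0.11 in each case).

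In DM the shares of members called, lower and higher, were below those of all genes, and the medians were close. Of 282 members, 42 fell, 17 rose and 223 were not called, which is 14.9% lower and 6.03% higher. Over all genes tested 28.1% were called, 18.2% lower and 9.95% higher. The median change was -0.04 for the members and -0.06 for all genes. The count of members lower was 25, 25 and 24 without wildtype array 1, 2 or 3, and 26 without DM array 1, where 12.5%, 12.6%, 12.9% and 14% of all genes were lower; the count higher was 9 without wildtype array 2 (3.2% of members and 7.1% of all genes). Without DM array 2 the members' median was -0.09 against -0.07 for all genes, so that it lay below theirs and not above, and 51 members were lower (18.2%, against 20.9% of all genes). With the oocyte marker median as a covariate 10 members were lower and 3 higher (3.55% and 1.06%, against 9.58% and 5.4% of all genes). Of the member calls 71.2% were lower, but 50.8% after quantile normalization (30 lower, 29 higher) and 41.4% after centring (24 lower, 34 higher), and over all genes 64.6%, 51.7% and 42.9%. Centring moved the median of all genes from -0.06 to 0.07 here, and the members lay 0.02 above it with and without centring.

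Set directly against Bmp15-/-, 11 members were higher in DM (3.9%, against 1.64% of all genes) and 0 were lower (against 1.61%); 3.25% of all genes were called. At an unadjusted p of 0.05, 50 of the 282 members were higher and 13 lower, and 1165 and 1505 of all 13447 genes. The median change of the members was 0.09 and that of all genes -0.03, and 190 of the 282 changes were positive; without DM array 2 the medians were 0.04 and -0.04. The DM arrays lay above all Bmp15-/- arrays for 15.2% of members and 8.95% of all genes, and below them for 3.55% and 12.5%. The 11 became 2 and 1 without Bmp15-/- array 1 or 2, 6 without Bmp15-/- array 3, and 6 and 7 without wildtype array 2 or 3, whose spread enters the same fit. The share of all genes higher fell too, to 0.5%, 0.411%, 1.33%, 1.03% and 1.01% in that order. Without DM array 2, 2 members were lower (0.714%, against 4.55% of all genes). The fit on the 6 arrays of these groups alone called 2 members higher (0.709%, against 0.469% of all genes), and the fit with the oocyte covariate 6 (2.13%, against 1.09%). The comparisons share arrays, since wildtype serves both mutants and Bmp15-/- enters both its own comparison and this one, so their values are given side by side and not as separate evidence.

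By array, the median of the 282 members relative to the wildtype mean was -0.12, -0.17 and -0.16 on Bmp15-/- arrays 1, 2 and 3, where all genes had -0.01, -0.06 and -0.04. On DM arrays 1, 2 and 3 it was -0.09, 0.01 and -0.09, and that of all genes -0.05, -0.04 and -0.08. All 3 Bmp15-/- arrays were thus alike, while DM array 2 stood at the wildtype level for this family. DM array 2 was the highest DM array for 54.3% of members and for 42.5% of all genes. It was also the DM array with the largest 3′ to 5′ difference of the Gapdh probe sets (0.95) and of the actin probe sets (2.12, against 1.85 and 1.87); the part of RNA quality in it was not tested.

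**Figure D1:**
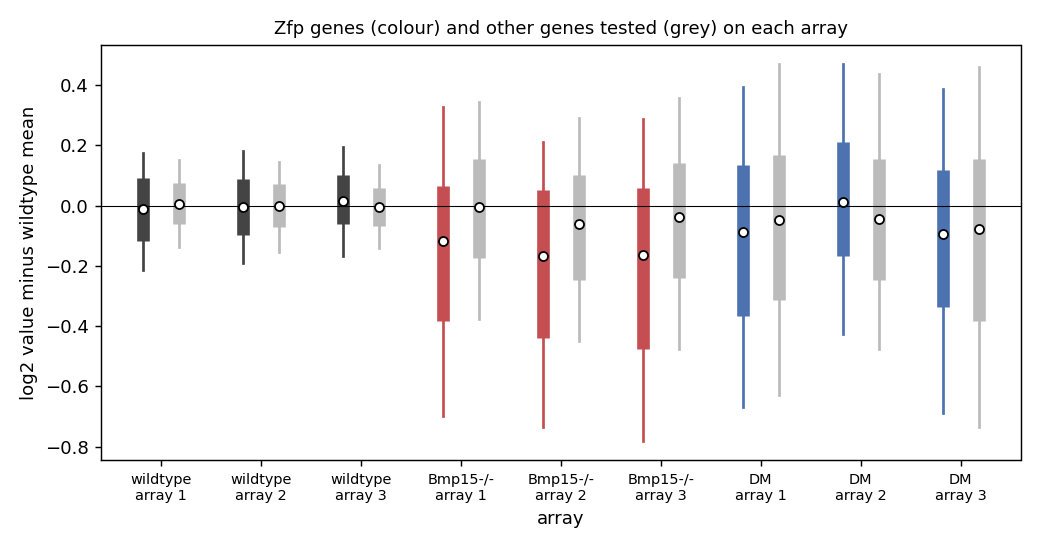
Log2 value minus the wildtype mean of the same gene, on each of the 9 arrays, for the 282 Zfp genes (colour) and the other genes tested (grey); circles are medians, thick bars the middle 50 percent and thin lines the 10th to 90th percentile. The 3 Bmp15-/- arrays have Zfp medians of -0.12 to -0.17, and DM array 2 has 0.01; wildtype arrays are narrow because they are set against their own mean.

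The members had a median mean log2 signal of 7.27, with a range of 4.78 to 12.56, and the share of genes called varies with signal. Genes were therefore compared within steps of 1 log2 unit of mean signal, using the 7 steps with at least 10 members. In Bmp15-/- the share of members that fell was higher than that of other genes in 6 of 7 steps, and their median was lower in 6. Between log2 5 and 6, for example, 18% of 61 members and 2.22% of 2746 other genes fell, and between 8 and 9, 17.5% of 40 and 7.48% of 1791. For the share, the exception was the step from 11 to 12, where 0 of 12 members fell. For the median it was the step from 8 to 9, where members and other genes both had -0.12. In DM the share that fell was lower than that of other genes in 5 of 7 steps: between 8 and 9 it was 12.5% of members and 25.5% of other genes, while between 5 and 6 it was 14.8% and 6.12%. In DM against Bmp15-/- the members' median was the higher in 7 of 7 steps. These steps describe the tables and carry no test.

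**Figure D2:**
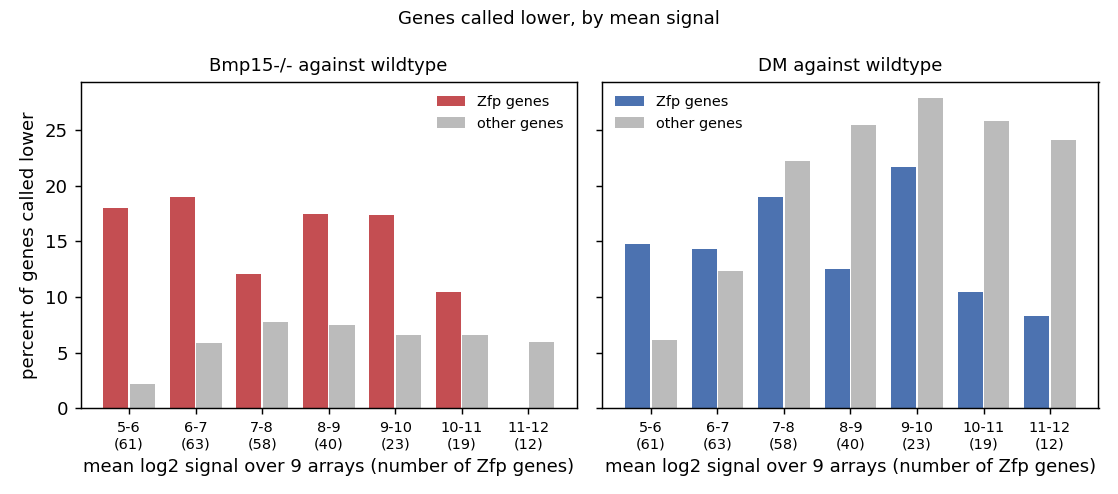
Percent of genes called lower than wildtype (adjusted p under 0.05, limma) in steps of mean log2 signal over 9 arrays, for Zfp genes (colour, number in parentheses) and other genes (grey), in Bmp15-/- (left) and DM (right). In Bmp15-/- the Zfp bar is the higher in 6 of 7 steps, and in DM it is the lower in 5 of 7.

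Zfp53 had the largest fall in Bmp15-/-. Its log2 values were 6.41, 5.99 and 6.28 for wildtype, 4.01, 4.29 and 4.54 for Bmp15-/- and 4.43, 5.96 and 4.75 for DM. The Bmp15-/- arrays lay far below wildtype, whereas DM array 2 was almost level with the lowest wildtype array. It fell by 1.94 ± 0.34 (SE) in Bmp15-/- (adjusted p = 0.00971) and by 1.18 ± 0.34 in DM (adjusted p = 0.028). Zfp53 passed the filter on 4 arrays only, so its mutant values are mostly at the dim end of the array and the change may be understated. The fall in DM was not called without wildtype array 1 or 3 or without DM array 1 or 3. It was also not called with the mean over probe sets, the oocyte covariate or only the 6 arrays compared (-1.63 to -0.56 over all settings).

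Zfp563 was lower in both mutants with little spread. It stood at 6.53, 6.54 and 6.43 in wildtype, at 5.41, 4.89 and 4.89 in Bmp15-/- and at 5.16, 5.43 and 5.35 in DM. Every mutant array lay about 1 log2 unit or more below the lowest wildtype array. The change was -1.44 ± 0.14 in Bmp15-/- (adjusted p = 0.00078) and -1.19 ± 0.14 in DM (adjusted p = 0.000507).

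Zfp709 gave 6.6, 6.61 and 6.93 for wildtype, 5.67, 5.58 and 5.21 for Bmp15-/- and 5.26, 5.63 and 5.66 for DM. Neither mutant group overlapped wildtype, and the falls were alike, by 1.23 ± 0.16 (adjusted p = 0.00313) and by 1.20 ± 0.16 (adjusted p = 0.000774). Zfp472 gave 7.08, 7.39 and 7.37, then 6.53, 6.33 and 5.89, then 6.59, 6.57 and 6.41 in the same order. It fell by 1.03 ± 0.16 in Bmp15-/- (adjusted p = 0.00634) and by 0.76 ± 0.16 in DM (adjusted p = 0.00742). The DM call of Zfp472 ended with the oocyte covariate (-0.85 to -0.59 over all settings).

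Zfp113 and Zfp958 fell in Bmp15-/- and had 1 DM array at the wildtype level. Zfp113 was at 6.86, 6.75 and 6.80 for wildtype, 5.30, 5.64 and 5.03 for Bmp15-/- and 5.74, 6.77 and 6.19 for DM, a change of -1.48 ± 0.24 in Bmp15-/- (adjusted p = 0.00736) and -0.57 ± 0.24 in DM (adjusted p = 0.103). Zfp958 was at 6.84, 7.38 and 7.26 for wildtype, 5.85, 5.5 and 5.88 for Bmp15-/- and 6.03, 7.50 and 6.03 for DM. Its change of -1.42 ± 0.35 in Bmp15-/- passed at an adjusted p of 0.0382, and that of -0.64 ± 0.35 in DM did not (adjusted p = 0.204). For both genes DM array 2 stood out from the other DM arrays.

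Zfp748 and Zfp101 completed the 8 largest falls in Bmp15-/-. Zfp748 had 7.59, 7.94 and 8.04 for wildtype, 6.45, 6.6 and 6.46 for Bmp15-/- and 5.87, 7.22 and 6.61 for DM, with changes of -1.35 ± 0.28 and -1.29 ± 0.28 (adjusted p = 0.0196 and 0.00831). Zfp101 had 8.63, 8.55 and 8.47 for wildtype, 7.58, 7.73 and 7.34 for Bmp15-/- and 7.20, 7.90 and 7.98 for DM, with changes of -1 ± 0.19 and -0.85 ± 0.19 (adjusted p = 0.0148 and 0.0103). A second tested probe set of Zfp101 fell too, by 0.73 in Bmp15-/- and by 0.51 in DM. In Bmp15-/- the calls of Zfp53, Zfp113, Zfp563, Zfp709 and Zfp472 held without any 1 array, with changes in all settings between -2.08 and -1.07 for Zfp53 and between -1.61 and -1.32 for Zfp563. Those of Zfp958, Zfp748 and Zfp101 did not: Zfp958 was no longer called without any 1 of the 6 arrays compared (-1.58 to -1.19 over all settings), Zfp748 without wildtype array 2 or 3 or Bmp15-/- array 1 or 3 (-1.54 to -1.18), and Zfp101 without wildtype array 1 or 2 or Bmp15-/- array 3, at changes between -1.09 and -0.86 over all settings. The calls of Zfp958, Zfp748 and Zfp101 also ended with the oocyte covariate, as did the DM calls of Zfp748 and Zfp101.

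**Figure D3:**
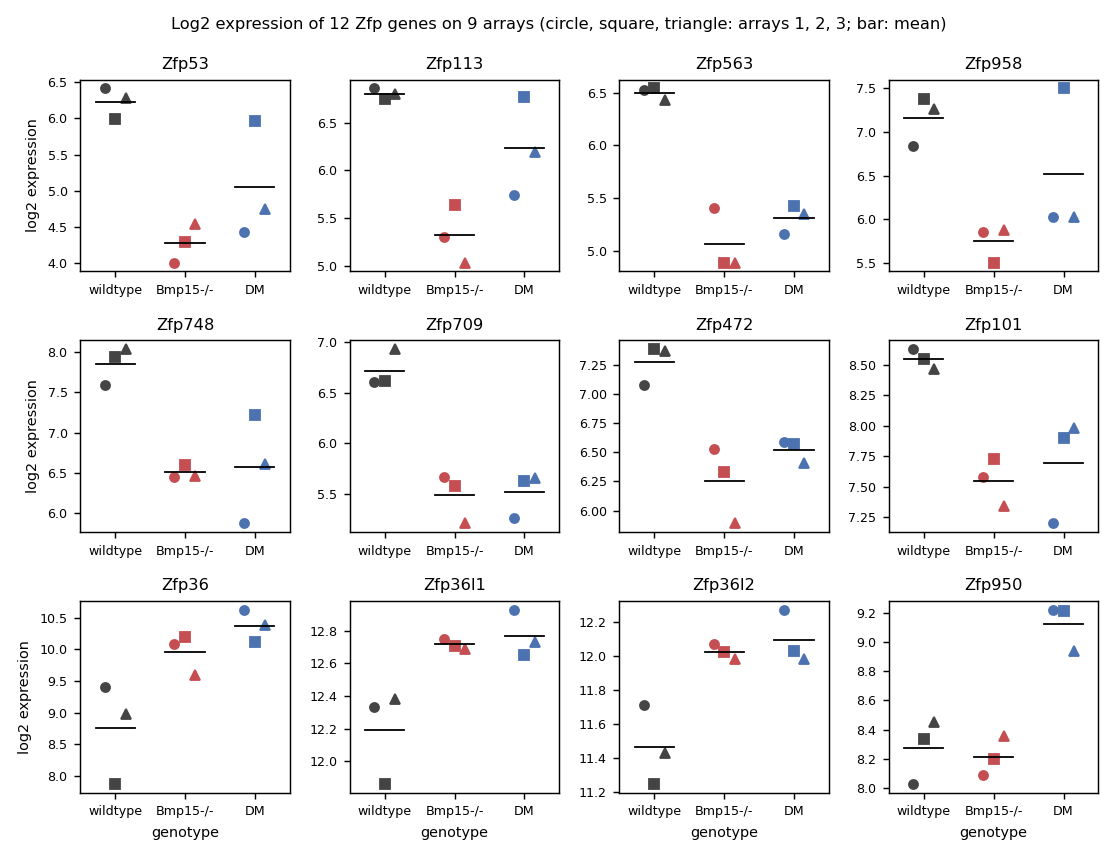
Log2 expression of 12 Zfp genes on the 3 arrays of each genotype, with arrays 1, 2 and 3 as circle, square and triangle and the group mean as a bar; the vertical axes differ between genes and do not start at 0. The first 8 genes have all Bmp15-/- arrays below all wildtype arrays, Zfp36, Zfp36l1 and Zfp36l2 have both mutants above wildtype, and Zfp950 is high in DM alone, at 8.94 to 9.22.

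The other 35 falls in Bmp15-/- ran from -0.98 (Zfp52) to -0.36 (Zfp512). All 3 Bmp15-/- arrays were below all 3 wildtype arrays for each of the 43. A call from these same arrays makes such a gap likely, so it is no further evidence. The median over the 43 was -0.72.

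The 6 members that rose in Bmp15-/- were Zfp131, Zfp655, Zfp982, Zfp959, Zfp36l2 and Zfp36l1. Zfp131, a BTB domain transcription factor, had 9.82, 9.53 and 9.47 for wildtype, 10.55, 10.75 and 10.94 for Bmp15-/- and 10.58, 9.17 and 10.26 for DM. It rose by 1.14 ± 0.30 in Bmp15-/- (adjusted p = 0.0474), a call that ended without any 1 of the 6 arrays compared (0.99 to 1.27 over all settings). Zfp131 also lost this call with no dim filter and with the oocyte covariate. Its change in DM, 0.40 ± 0.30, was not called (adjusted p = 0.361), and DM array 2 was below wildtype. Zfp655 had 11, 10.83 and 11.13 for wildtype, 11.90, 11.74 and 12.01 for Bmp15-/- and 11.96, 11.46 and 11.65 for DM, so that both mutants lay above wildtype on every array. Its change was 0.90 ± 0.14 in Bmp15-/- (adjusted p = 0.00652) and 0.70 ± 0.14 in DM (adjusted p = 0.00571), and a second tested probe set gave 1.39 and 0.85. The DM call of Zfp655 ended with the oocyte covariate (0.55 to 0.83 over all settings). Zfp982 and Zfp959 rose by 0.69 ± 0.17 and by 0.61 ± 0.15 in Bmp15-/- and were not called in DM (0.17 and 0.40). Both Bmp15-/- calls ended without wildtype array 1, 2 or 3 or Bmp15-/- array 3, and also without Bmp15-/- array 2 for Zfp982 and array 1 for Zfp959 (0.31 to 0.91 and 0.40 to 0.76 over all settings). Both ended with the oocyte covariate too, and that of Zfp982 also with the mean over probe sets.

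Of the CCCH factors that bind AU-rich mRNA only 3 were tested, of which 2 rose and 0 fell in Bmp15-/-, and 3 rose in DM. Over all genes 3.29% rose and 5.78% fell in Bmp15-/-, and 9.95% rose in DM. Zfp36 encodes tristetraprolin, which shortens the life of cytokine and immediate early mRNAs. Its values were 9.41, 7.87 and 8.98 for wildtype, 10.08, 10.20 and 9.60 for Bmp15-/- and 10.63, 10.12 and 10.38 for DM. Wildtype array 2 was the lowest of all, and both mutants lay above the highest wildtype array. The change was 1.20 ± 0.34 in Bmp15-/-, which missed the threshold (adjusted p = 0.0574), and 1.62 ± 0.34 in DM (3.08-fold, adjusted p = 0.00746).

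Zfp36l1 was at 12.33, 11.86 and 12.38 for wildtype, 12.75, 12.71 and 12.69 for Bmp15-/- and 12.93, 12.65 and 12.73 for DM. It rose by 0.53 ± 0.14 (adjusted p = 0.0463) and by 0.58 ± 0.14 (adjusted p = 0.0134). Zfp36l2 was at 11.71, 11.25 and 11.43 for wildtype, 12.07, 12.02 and 11.98 for Bmp15-/- and 12.27, 12.03 and 11.98 for DM, and rose by 0.56 ± 0.13 (adjusted p = 0.0264) and by 0.63 ± 0.13 (adjusted p = 0.00591). For all 3 genes wildtype array 2, which also had the highest oocyte marker median, was the lowest array. The Bmp15-/- call of Zfp36l1 ended without any 1 of the 6 arrays compared, without DM array 3, with no dim filter and with the oocyte covariate (0.33 to 0.65 over all settings), and that of Zfp36l2 without any 1 of these 6 except wildtype array 1 and with the covariate (0.24 to 0.69). In DM the calls of Zfp36 and Zfp36l1 ended with the covariate (highest adjusted p = 0.0524 and 0.162 over the settings) and held without any 1 array. With the mean over all probe sets of a gene, Zfp36l1 and Zfp36l2 were called in neither mutant; the other tested probe sets of Zfp36l2 gave 0.25 and -0.08 in Bmp15-/- and 0.36 and -0.14 in DM. None of the 3 was called between DM and Bmp15-/- (changes of 0.42, 0.05 and 0.07, adjusted p of 0.542 or more).

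The partners through which these proteins act on mRNA, the CCR4-NOT deadenylase, its Tob and Btg adaptors and the decapping enzymes, moved in both directions. Of 16 tested, 3 rose and 1 fell in Bmp15-/- (18.8% and 6.25%, against 3.29% and 5.78% of all genes), and 3 rose and 3 fell in DM (18.8% each, against 9.95% and 18.2%). The adaptors Tob1 and Tob2 rose by 0.91 ± 0.23 and by 0.83 ± 0.20 in Bmp15-/-, and by 1.07 ± 0.23 and by 1.04 ± 0.20 in DM, and Btg2 rose by 1.58 ± 0.34 in DM. As for Zfp36, Zfp36l1 and Zfp36l2, wildtype array 2 was the lowest array for each. Wildtype values were 11.67, 10.85 and 11.86 for Tob1, 11.64, 10.89 and 11.56 for Tob2 and 9.12, 7.74 and 9.31 for Btg2. How the calls on this list depend on single arrays or on the oocyte covariate was not tested. The subunit Cnot3 rose by 0.35 ± 0.09 in Bmp15-/-, whereas Cnot8, a deadenylase subunit, fell by 0.50 ± 0.11 there and by 0.55 ± 0.11 in DM. Cnot9 and the decapping enzyme Dcp2 fell in DM, by 0.84 ± 0.11 and by 0.45 ± 0.11.

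Of the members known as cofactors of SMAD, BMP or TGF-beta signals, 4 were tested and Zfp423 alone was called. It fell in both mutants, or 25% of the list, against 5.78% of all genes in Bmp15-/- and 18.2% in DM. ZFP423 binds DNA with SMAD proteins and aids BMP responses. It had 5.37, 5.42 and 5.85 for wildtype, 4.61, 4.93 and 4.69 for Bmp15-/- and 4.80, 5.06 and 5.01 for DM, with no overlap between wildtype and either mutant. It fell by 0.81 ± 0.15 (adjusted p = 0.0118) and by 0.59 ± 0.15 (adjusted p = 0.0151), but it passed the filter on 4 arrays only and is dim in the mutants, and its call was lost in Bmp15-/- without array 3 and in DM without array 1 or with the oocyte covariate (-0.96 to -0.55 and -0.68 to -0.44 over all settings). Zfp451, Zfp503 and Zfp703 were not called (-0.21, 0.20 and 0.24 in Bmp15-/- and 0.06, 0.10 and -0.05 in DM).

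Of 7 tested repressors of retroelements or imprinted genes, 0 were called in Bmp15-/- (1 lower at an unadjusted p of 0.05 in limma), and 1 fell in DM (14.3%). Over all genes 9.07% were called in Bmp15-/- and 18.2% fell in DM, so these counts are near the background. The one that fell was Zfp961, at 7.56, 7.60 and 7.61 for wildtype, 7.60, 7.02 and 7.05 for Bmp15-/- and 6.6, 7.04 and 6.65 for DM (-0.82 ± 0.17, adjusted p = 0.00622). It was not called with the mean over all its probe sets. Zfp809, which silences murine leukaemia virus, changed by -0.44 and -0.40 without a call, and Zfp445 and Zfp568, which act at imprinted genes, by -0.07 and 0.27 in Bmp15-/-. Zfp57, which protects imprints and is abundant in the oocyte, had its wildtype maximum of 5.96 on array 2, where the oocyte markers were also highest, and was not called.

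Among 15 tested general activators and chromatin-bound factors, Zfp131 rose and Zfp318 fell in Bmp15-/-, and Zfp318 and Zfp532 fell in DM. In Bmp15-/- 6.67% of the list rose and 6.67% fell, against 3.29% and 5.78% of all genes. In DM 13.3% fell, against 18.2%. Zfp318, known from the alternative processing of immunoglobulin D transcripts, had 9.00, 9.01 and 8.94 for wildtype, 8.57, 8.51 and 8.45 for Bmp15-/- and 8.61, 8.63 and 8.64 for DM. The spread within each group was under the gap between wildtype and either mutant. Zfp318 fell by 0.47 ± 0.07 in Bmp15-/- (adjusted p = 0.00677) and by 0.35 ± 0.07 in DM (adjusted p = 0.00732). The DM call ended after centring and with the oocyte covariate (-0.43 to -0.22 over all settings). Zfp532 fell by 0.45 ± 0.12 in DM, a call absent after quantile normalization or centring or without wildtype array 1 (-0.52 to -0.32). Zfp148, Zfp217 and Zfp281 changed by -0.11, -0.30 and 0.38 in Bmp15-/- and were not called.

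The list of RNA, ribosome and spindle proteins, of which 11 were tested, held no call in Bmp15-/-, with 0 at an unadjusted p of 0.05. Over all genes 9.07% were called there. In DM 9.09% of the list fell and 9.09% rose, against 18.2% and 9.95% of all genes. In DM, Zfp207, the mitotic spindle protein BuGZ, fell by 0.47 ± 0.12, and Zfp263 rose by 0.31 ± 0.10; Zfp263 is a DNA-binding transcription factor that the name of the list does not describe. Neither call held on other probe sets. Without probe sets whose names end in _a_at, _s_at or _x_at, Zfp207 changed by 0.25 in the opposite direction, and Zfp263 was not called. The Zfp207 call also ended without wildtype array 1 or 2 or DM array 3, and that of Zfp263 without any 1 array except DM array 2 (0.01 to 0.44 over all settings). Zfp622, a ribosome biogenesis factor, changed by 0.65 in DM without a call (adjusted p = 0.0546).

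Zfp395 and Zfp467 were called in both mutants among the 5 tested members linked to hypoxia, fat cells or stress. This is 40% lower in each mutant, against 5.78% of all genes in Bmp15-/- and 18.2% in DM. Zfp395, induced by hypoxia, had 8.10, 8.09 and 8.18 for wildtype, 7.54, 6.84 and 7.14 for Bmp15-/- and 6.74, 7.39 and 6.78 for DM, and fell by 0.95 ± 0.20 (adjusted p = 0.0228) and by 1.15 ± 0.20 (adjusted p = 0.00329). The Bmp15-/- call of Zfp395 ended without wildtype array 1, 2 or 3, without Bmp15-/- array 2 or 3 and with the oocyte covariate (-1.13 to -0.78 over all settings), while the DM call held without any 1 array. Zfp467, a regulator of fat and bone cell fate, fell from 5.77, 5.76 and 5.46 to 4.83, 5.04 and 5.10 in Bmp15-/- and 5.02, 4.86 and 5.00 in DM. Its changes were -0.67 ± 0.11 (adjusted p = 0.00884) and -0.71 ± 0.11 (adjusted p = 0.00211), with mutant values near the 40th percentile of the arrays, which was 4.97 to 5.05. Zfp516, Zfp110 and Zfp369 were not called.

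In DM, falls beyond those already given were led by Zfp979 and Zfp654. Zfp979 had 8.59, 8.33 and 8.47 for wildtype, 8.46, 8.47 and 8.01 for Bmp15-/- and 7.69, 7.69 and 6.73 for DM, a fall of 1.10 ± 0.24 in DM (adjusted p = 0.00973) beside a change of -0.15 in Bmp15-/-. The difference between the mutants was -0.94 and was not called (adjusted p = 0.07). Zfp654 fell by 0.92 ± 0.17 in DM (adjusted p = 0.00371) and changed by -0.60 in Bmp15-/- (adjusted p = 0.054). Its probe set may share targets with other genes.

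The rises in DM were led by Zfp36 and Zfp93, followed by Zfp950, Zfp141, Zfp319, Zfp655, Zfp36l2 and Zfp420. Zfp93 rose by 1.62 ± 0.45 (adjusted p = 0.0254), from 3.65, 4.24 and 4.19 to 5.77, 5.79 and 5.39; its wildtype values lie below the filter and its probe set may share targets with other genes. The call ended without wildtype array 1, 2 or 3, without DM array 1 or 2 and with the oocyte covariate (0.65 to 1.82 over all settings). Zfp950 had 8.03, 8.34 and 8.45 for wildtype, 8.09, 8.20 and 8.36 for Bmp15-/- and 9.22, 9.21 and 8.94 for DM. All DM arrays lay above the other 6, and it was higher by 0.85 ± 0.13 than in wildtype (adjusted p = 0.0018) and by 0.91 ± 0.13 than in Bmp15-/- (adjusted p = 0.00992).

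Zfp319 was at 5.93, 6.19 and 6.04 for wildtype, 6.23, 6.43 and 6.34 for Bmp15-/- and 6.86, 7.02 and 6.71 for DM, and rose by 0.81 ± 0.11 in DM (adjusted p = 0.000839). Its other tested probe sets gave -0.20 and -0.36, and with the mean over probe sets neither Zfp950 nor Zfp319 was called in DM. Zfp141 rose by 0.81 ± 0.20 and Zfp420 by 0.59 ± 0.17 in DM. Both calls ended with the oocyte covariate, and that of Zfp420 also without wildtype array 1, 2 or 3 or DM array 1 or 3 (0.37 to 0.72 over all settings). The probe set of Zfp420 may share targets with other genes.

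The 11 members higher in DM than in Bmp15-/- were Zfp950, Zfp764, Zfp60, Zfp955a, Zfp623, Zfp398, Zfp839, Zfp869, Zfp408, Zfp319 and Zfp956, with differences from 0.91 to 0.52. Zfp955a had 9.66, 9.68 and 9.72 for wildtype, 9.19, 9.30 and 9.17 for Bmp15-/- and 9.74, 10.23 and 9.90 for DM, so that the Bmp15-/- arrays were the lowest 3 and the DM arrays the highest 3. It differed by 0.73 ± 0.12 between the mutants (adjusted p = 0.0147), by -0.47 between Bmp15-/- and wildtype (adjusted p = 0.0426) and by 0.27 between DM and wildtype (adjusted p = 0.125). The call between Bmp15-/- and wildtype ended without any 1 of their 6 arrays, after quantile normalization or centring, with the mean over probe sets and with the oocyte covariate (-0.51 to -0.19 over all settings), and the call between the mutants ended without Bmp15-/- array 1 or 2 (0.37 to 0.84). Zfp408 had 9.08, 9.15 and 9.14, then 8.78, 8.77 and 8.56, then 9.18, 9.39 and 9.15 in the same order of genotypes, with Bmp15-/- lowest. Zfp764 had 6.48, 6.6 and 6.95, then 6.07, 5.77 and 6.18, then 6.96, 6.89 and 6.58, a difference between the mutants of 0.81 ± 0.16 (adjusted p = 0.03). The probe set of Zfp764 may share targets with other genes. Of the 8 largest of these differences and Zfp319, that of Zfp950 held without any 1 array, while those of the others ended without Bmp15-/- array 2 and, in part, without further arrays. With the mean over probe sets the calls of Zfp950, Zfp60, Zfp398 and Zfp319 between the mutants ended (0.48 to 1 for Zfp950 over all settings). With the oocyte covariate the calls of Zfp764, Zfp60, Zfp398, Zfp839 and Zfp869 between the mutants ended. Zfp60, Zfp623 and Zfp869 had changes of -0.94, -0.65 and -0.67 against wildtype in Bmp15-/- and -0.16, 0.08 and -0.11 in DM. The other 5 of the 11 were not called in Bmp15-/-.

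Zfp genes often lie next to each other, and the reference order placed 278 of the 282 members among protein-coding genes. Of 137 members with a Zfp gene as direct neighbour, 27 fell in Bmp15-/- (19.7%) with a median change of -0.25, and of 141 without one, 16 fell (11.3%) with a median of -0.10. In DM 24 and 18 fell (17.5% and 12.8%), with medians of -0.08 and -0.02. Both classes lay above the background of 5.78% in Bmp15-/- and below that of 18.2% in DM.

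Of 17 runs of neighbouring Zfp genes with at least 3 tested members, 4 are described, chosen after their values had been seen. Beside their counts stand 19.7% lower for members with a Zfp neighbour and 5.78% for all genes in Bmp15-/-. The same shares were 17.5% and 18.2% in DM. Among the runs not described, Zfp84 to Zfp146 had 1 of 9 tested lower in Bmp15-/- (median 0.06). Zfp180 to Zfp94 had 0 of 8 (median -0.17). In the run from Zfp677 to Zfp983, which holds Zfp53 and Zfp52, 3 of 5 tested members fell in Bmp15-/-. Zfp51 (7.02, 7.08 and 7.24 in wildtype, 6.01, 6.18 and 6.36 in Bmp15-/-, 6.35, 6.38 and 6.20 in DM) fell in both mutants, by 0.93 ± 0.11 and by 0.80 ± 0.11. Zfp52 (6.06, 6.62 and 7.07 in wildtype, 5.53, 5.71 and 5.55 in Bmp15-/-, 6.23, 6.80 and 6.61 in DM) fell in Bmp15-/- by 0.98 ± 0.23 and overlapped wildtype in DM. Zfp948 and Zfp983 of the same run changed by 0.27 and 0.03 in Bmp15-/- and were not called.

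In the run from Zfp472 to Zfp563, 3 of 4 tested members fell in Bmp15-/-, namely Zfp472, Zfp763 (-0.81 ± 0.18) and Zfp563, and Zfp952 changed by -0.30 without a call. In the run from Zfp709 to Zfp961, 2 of 4 fell in Bmp15-/- (Zfp709 and Zfp617) and 3 in DM (with Zfp961). In the longest, from Zfp455 to Zfp273 with 9 tested, 2 fell in Bmp15-/- (Zfp748 and Zfp729a), while Zfp87 changed by -1.28 with an adjusted p of 0.0722. Members of a run are close relatives, and probe sets of close relatives may read each other's transcripts, which was not tested. Of the 282 tested probe sets 246 have a name that ends in _at with no letter before it. Another 11 end in _a_at, 9 in _s_at and 16 in _x_at. The 246 held 40 of the 43 falls, a share near that of the type among all tested members.

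**Figure D4:**
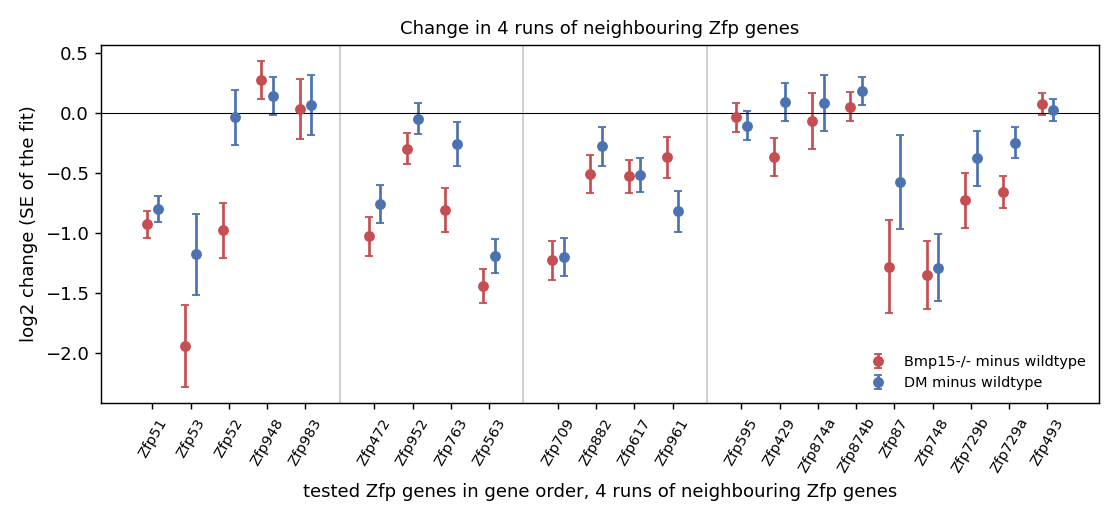
Log2 change against wildtype with the standard error of the fit, in Bmp15-/- (red) and DM (blue), for the tested Zfp genes of 4 runs of neighbouring Zfp genes in gene order; grey lines separate the runs. Within a run, genes that fell, such as Zfp53 (-1.94) and Zfp563 (-1.44), stand beside genes near 0, such as Zfp983 (0.03).

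By chromosome, over the members with a promoter entry and the 10 chromosomes that held at least 8 of them, chromosome 17 held 33 members, of which 11 fell in Bmp15-/- (33.3%), against 27 of 509 other genes there (5.3%). Chromosomes 5 and 8 held 15 members each, of which 5 fell (33.3%), against 4.41% and 5.63% of the other genes. Chromosome 7 held the most, 61, of which 5 fell (8.2%, against 4.52% of other genes). On the other 6 the share of members that fell was 18.8% on chromosome 13 (5.51% of other genes), 16.7% on 9 (6.21%), 13.3% on 6 (3.84%), 8.33% on 11 (6.47%), 6.67% on 2 (4.83%) and 0 of 8 on 4 (6.22%). The median change in Bmp15-/- was -0.30 for the members on chromosome 17 and -0.13 for those on chromosome 7.

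Of 17 tested corepressors and partners through which KRAB proteins act, 0 rose and 2 fell in Bmp15-/- (0% and 11.8%, against 3.29% and 5.78% of all genes), and 2 rose and 6 fell in DM (11.8% and 35.3%, against 9.95% and 18.2%). The histone methyltransferase Setdb1 fell by 0.33 ± 0.09 in Bmp15-/-, near the threshold (limma adjusted p = 0.0482), and by 0.41 ± 0.09 in DM. The deacetylase Hdac2 fell by 0.38 ± 0.08 and by 0.48 ± 0.08. How the calls on this list depend on single arrays was not tested. In DM the maintenance methylation factor Uhrf1 fell by 0.55 ± 0.09 and the heterochromatin protein Cbx5 by 0.48 ± 0.09, while Mphosph8 rose by 0.43 ± 0.08 and Atrx by 0.29 ± 0.08. Trim28 itself changed by 0.06 and 0.25 and was not called.

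In other zinc finger families defined by symbol a smaller share fell in Bmp15-/-, with no test of the difference. This share was 2.5% for Zbtb, 6.67% for Zscan and Zkscan, and 0% for Zc3h and for Klf and Sp. For Zfp genes it was 15.2%, and for all genes 5.78%. Of 40 Zbtb genes 1 fell and 3 rose, of 15 Zscan and Zkscan genes 1 fell and 1 rose, of 13 Zc3h genes 0 fell and 0 rose (1 lower and 3 higher at an unadjusted p of 0.05 in limma), and of 22 Klf and Sp genes 0 fell and 3 rose. Their medians were -0.03, -0.20, -0.05 and 0.20, beside -0.15 for the Zfp genes. Zscan and Zkscan genes thus shifted much as the Zfp genes did. Changes were negative for 80% of them, 73% of Zfp genes and 56.4% of all genes. In DM against Bmp15-/- the medians were 0.06 for Zbtb, 0.22 for Zscan and Zkscan, -0.02 for Zc3h and -0.02 for Klf and Sp, beside 0.09.

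Other probe sets of the called members were compared for sign. In Bmp15-/-, 15 of the 49 called members had 19 further tested probe sets, of which 16 changed in the same direction (6 called) and 3 in the other (0 called). In DM, 20 of 59 had 37, of which 25 changed in the same direction (5 called) and 12 in the other (0 called). At the edge of the filter, Zfp429 and Zfp882 passed on exactly 3 arrays, with mean log2 values of 4.87 and 4.93. Just outside, with 2 arrays above, were Zfp248, Zfp54, Zfp599, Zfp784, Zfp82 and Zfp934, at 4.68 to 4.94. Of the 53 members left out, 38 were above the percentile on 0 arrays, and 0 of the tested members had passed through 1 genotype alone.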

How the data were processed

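RNA from cumulus cells of 9 samples was hybridised to Affymetrix mouse arrays of 45101 probe sets, and the authors deposited log2 expression values, made with RMA from the affy package per the submitters' processing notes; their versions are not given in the sources at hand. The values ran from 2.87 to 14.53 with array medians of 5.52 to 5.59 and were used as deposited; the number of arrays limits the precision. Of the probe sets, 34958 had 1 gene symbol in the platform annotation, 932 several and 9211 none, and only the first were used. Each of 18194 genes took its probe set with the highest mean, and the 13447 genes above the 40th percentile of the array on at least 3 arrays were tested.

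The 3 groups were fitted together in limma 3.58.1 (R 4.3.3; figures with matplotlib 3.10.9), without a replicate block, giving 6 residual degrees of freedom and p-values adjusted by Benjamini-Hochberg over all genes tested; called means an adjusted p under 0.05, and errors after ± are the standard error of the fit. The samples of a genotype came from separate pools of mice. An exact permutation test of 3 against 3 arrays cannot go below 0.10. Nothing in the labels says that the replicate numbers pair the arrays. The correlations of same-numbered arrays' deviations ranged from -0.08 to 0.26 and 2 of 9 exceeded 0.1. Those of different-numbered arrays of different genotypes ranged from -0.2 to 0.17 and 5 of 18 exceeded 0.1. These values do not settle whether the numbers pair the arrays. The code was tested on simulated data.

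Named genes were, in each comparison, up to 8 largest rises and falls among called members whose arrays did not overlap, members of the role lists and called genes of the machinery lists; the others named, such as the genes of the 4 runs, further genes called higher in DM than in Bmp15-/- and genes at the filter's edge, were chosen after their values were seen. The members and lists were chosen with earlier results of these data known. Markers of immune, endothelial, erythroid and surface epithelium cells were also listed: 0 of 3 immune and 0 of 1 endothelial markers tested were called in either mutant, 1 of 1 erythroid marker fell in both, and of 4 epithelial markers 1 rose in Bmp15-/- and 2 in DM. Gene order and promoters are those of RefSeq on GRCm38.p6; protein sequences were not used here, so classes by protein domain were not made. Of the names of this form, 1 is not reported here.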

Additional observations from a re-analysis of the deposited data

How the results depend on the processing

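The 2 settings that left out 2 arrays at once, wildtype array 2 with Bmp15-/- array 2 or wildtype arrays 1 and 2, were added after seeing the data; all others were planned. In Bmp15-/- the 6 members higher became 3 with the mean of all probe sets, 12 with centred arrays, 1 with the oocyte marker covariate and 0 and 0 with the pairs of arrays left out; the 43 lower became 14 with the covariate and 3 and 0 with the pairs left out, where 0.66% and 0.165% of all genes were lower. The median of -0.15 became -0.08 after quantile normalization and -0.03 after centring. In DM the 17 higher became 29 after quantile normalization, 34 after centring, 3 with the covariate and 8 and 4 with the pairs left out; the 42 lower became 24, 10, 16 and 4 after centring, with the covariate and with the pairs left out. The median of -0.04 became 0.03 and 0.09 after quantile normalization and centring. In DM against Bmp15-/- the 11 higher became 6 with the covariate, 2 with only the 6 arrays compared and 0 and 2 with the pairs left out, and the 0 lower became 1 after centring. Leaving out 1 array at a time gave 1 to 7 higher, 12 to 51 lower and medians of -0.19 to -0.13 in Bmp15-/-, 9 to 20, 24 to 51 and -0.09 to -0.03 in DM, and 1 to 12, 0 to 2 and 0.04 to 0.11 between the mutants. The replicate block, used though the labels do not say that numbers pair the samples, gave 41 lower and 5 higher in Bmp15-/-. It gave 36 and 21 in DM, and 1 lower and 8 higher between the mutants. Of single genes, Zfp207 turned to 0.25 in DM without probe sets whose names end in _a_at, _s_at or _x_at. Zfp503 turned to 0.70 between the mutants with the mean of all probe sets. For calls of named members and members of the role lists, 1000 gene and setting pairs kept their call and direction, 304 lost the call and 1 reversed. Dim values, such as those of Zfp53 and Zfp423 in the mutants, limit the size of the change that could be measured. Unless a value above shows it, the cause of a change between settings was not tested.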
